A study of Rattus norvegicus with 108 samples.

Results

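Oligodend1 is the larger of the clusters of mature oligodendrocytes that the study's authors annotated in the dorsal dentate gyrus of the rat. Its members are the 171 cells whose deposited annotation reads Oligodend1, of 1289 dorsal dentate gyrus (dorDG) cells and of 3517 cells in the whole series. The 64 cells from fluoxetine-treated rats (FT) came from 4 label replicates and the 107 cells from water-treated rats (Sham) from 5. The study's methods give 5 replicates per treatment group, while the labels hold 4 for dorDG FT. Comparison was made with the 95 cells annotated Oligodend2 and the 87 annotated OPC, the oligodendrocyte precursor cells.

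The study dissected dorsal and ventral dentate gyrus from male Long-Evans rats (Charles River) and counted 3' RNA tags by droplet sequencing, with unique molecular identifiers (UMIs) marking single molecules. Treatment began at 2 months of age and lasted 6 weeks, with fluoxetine, a selective serotonin reuptake inhibitor, given in the drinking water at 18 mg/kg for FT and plain water for Sham. Each replicate pooled tissue of several animals, and the labels give no genotype. The labels speak of nuclei, the study's methods describe whole cells from one portion of the tissue and nuclei from another, and neither says which droplet reaction held which.

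Oligodendrocytes wrap axons in myelin, a compacted membrane rich in cholesterol and galactolipids. Its proteins include myelin basic protein (Mbp) in the compact sheath, with myelin-oligodendrocyte glycoprotein (Mog) on the outermost lamella. They arise from precursors that carry the receptor Pdgfra and the proteoglycan Cspg4, pass through a short newly formed stage marked by Bcas1, and then switch on the myelin genes under Sox10 and Myrf. Much myelin mRNA, that of Mbp above all, is carried out of the soma along the processes.

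The 171 cells fell into a set with a high and a set with a low ribosomal share, which also differed in median depth. The boundary was 2% of a cell's UMIs in cytosolic ribosomal protein genes. By it 85 cells were ribosome-rich, with a median of 5729 UMIs (911 to 19455). The other 86 were ribosome-poor, with a median of 1276 UMIs (596 to 4854), so depths overlapped. Only 5 of the 171 cells had a ribosomal share between 1.5% and 2.5%. The ribosome-poor part was 50.3% in Oligodend1, 12.6% in Oligodend2 and 27.6% in OPC, so levels were compared between the clusters in ribosome-rich cells unless stated otherwise.

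**Figure D1:**
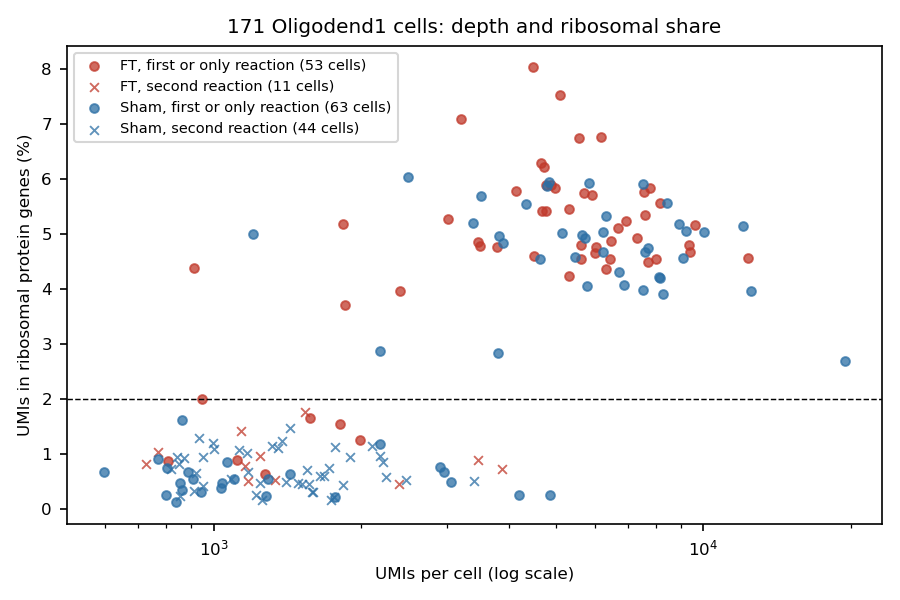
Each point is 1 of the 171 Oligodend1 cells, with its UMIs (log scale) against the percent of UMIs in ribosomal protein genes, coloured by treatment, with crosses for the second reaction of a replicate and a dashed line at 2%. All 55 cells of the second reactions lie under the line.

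Ribosome-poor cells were unevenly spread over the droplet reactions. FT 1, FT 2, Sham 1 and Sham 2 were loaded as 2 reactions each, here called first and second by identifier number, and the other replicates as 1. All 55 Oligodend1 cells of the second reactions were ribosome-poor, against 3 of the 32 cells in the first reactions of the same replicates. In Sham 1, 28 of 28 cells of the second reaction and 0 of 11 of the first were ribosome-poor. In Sham 2 these were 16 of 16 and 1 of 7, and in FT 2 they were 11 of 11 and 2 of 14. The second reaction of FT 1 held no Oligodend1 cell. Among replicates with 1 reaction, 2 of 15 cells of FT 4 and 1 of 14 of FT 5 were ribosome-poor, against 8 of 11 in Sham 3, 6 of 10 in Sham 4 and 10 of 24 in Sham 5. No Oligodend1 cell carried a barcode found in another dorDG reaction.

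**Figure D2:**
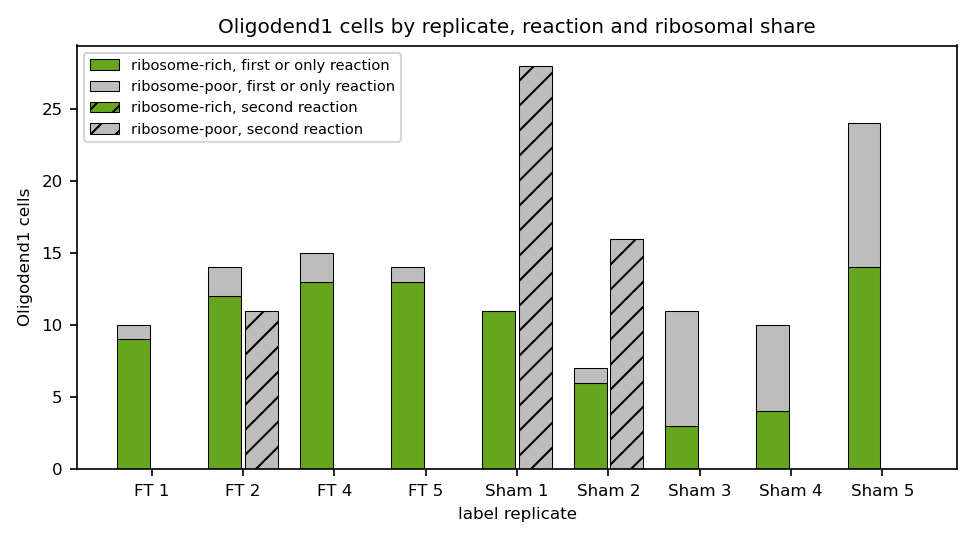
Bars give the number of Oligodend1 cells per label replicate and reaction (hatched: second reaction), split into ribosome-rich (green) and ribosome-poor (grey). The second reactions of FT 2, Sham 1 and Sham 2 hold 11, 28 and 16 cells, all ribosome-poor.

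The name was checked against its defining markers. UMIs per 10000 UMIs were summed over the cells of a replicate, in replicates with at least 5 cells. In Oligodend1 the level of Mbp ranged from 102 to 212 over the 9 replicates with a median of 135, and in Oligodend2 from 96.8 to 163 over 7 replicates. Mbp was also read in every other type, with medians from 29.2 in InhibNeuron to 58.7 in OPC, so its RNA was counted well beyond the oligodendrocyte clusters. Mobp, a myelin protein of the compact sheath, had a median of 33.2 in Oligodend1 and of 27.0 in Oligodend2. In the other 10 types its median lay between 5.04 and 9.25. Mog separated the types further, with a median of 22.5 in Oligodend1, 15.4 in Oligodend2 and 0.826 to 1.84 elsewhere. In Oligodend1 itself Pdgfra was at 0 in 6 of the 9 replicates and did not exceed 0.288 per 10000, and the precursor gene Gpr17 had no UMI. These genes shaped the clusters, so the levels describe the cells and were not tested.

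Within Oligodend1, Mbp ran from 102 per 10000 in Sham 3 to 212 in Sham 2 and Mobp from 25.9 in FT 1 to 51.6 in Sham 4. Mog stood at 22.5, 20.1, 21.7 and 22.4 per 10000 in FT 1, 2, 4 and 5, and at 23.6, 20.9, 23.3, 35.7 and 23.8 in Sham 1 to 5. For Mog all but Sham 4 therefore lay between 20.1 and 23.8. In Sham 4, 1 of the 10 cells held 19455 UMIs, 46.9% of that replicate's Oligodend1 total, and 16.5% of its UMIs were myelin list genes, against 1.53% to 6.74% in the other 9 cells.

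Oligodend1 and Oligodend2 shared the myelin program and differed in stress-responsive genes. The comparison was made within each of the 6 replicates with at least 5 ribosome-rich cells of both types (FT 1, 2, 4, 5 and Sham 1, 2), over 1882 genes with at least 1 UMI per 10000 in either type. Oligodend1 was above Oligodend2 in all 6 replicates for 9.03% of these genes and below it in all 6 for 7.92%. The clusters were drawn from these same cells, so the counts are a description.

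**Figure D3:**
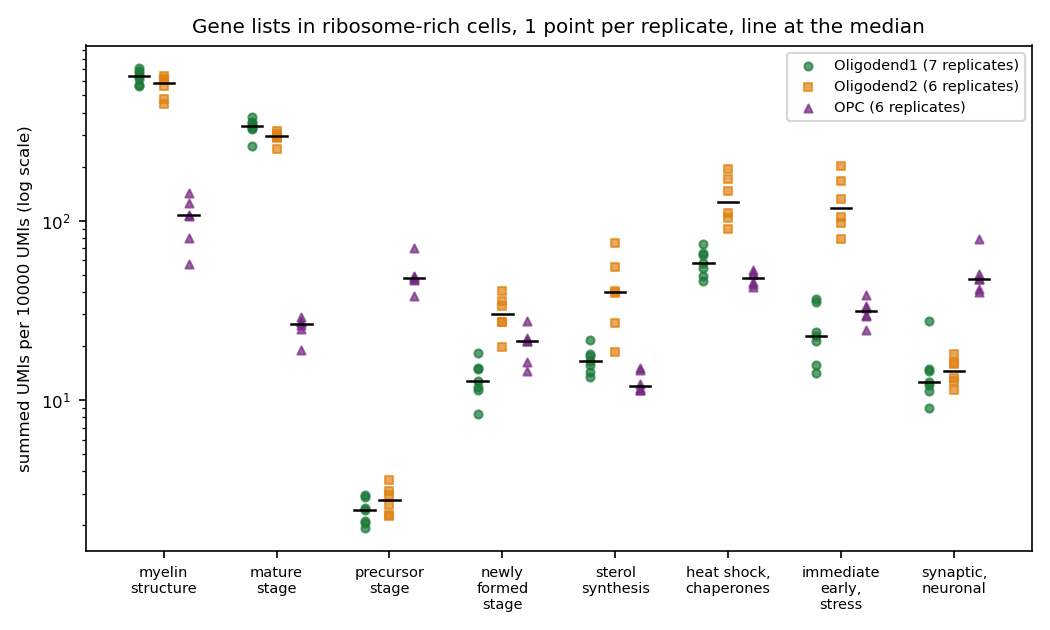
Summed level of 8 gene lists in UMIs per 10000 (log scale) in ribosome-rich Oligodend1, Oligodend2 and OPC, 1 point per replicate with a line at the median. The immediate early and stress list of Oligodend2 starts at 79.2, above the highest Oligodend1 value of 36.6, and the myelin list of OPC lies under both oligodendrocyte clusters.

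Of 12 immediate early and stress genes compared, 10 were lower in Oligodend1 in all 6 replicates and 0 were higher. The genes lower throughout were Fos, Fosb, Jun, Egr1, Atf3, Atf4, Dusp1, Nr4a1, Btg2 and Zfp36. The summed level of the list was 14.2 to 36.6 per 10000 in Oligodend1 and 79.2 to 202 in Oligodend2. Its median log2 ratio over replicates was -2.17, and the median over single genes was -2.06 against 0.08 for all genes compared. In 75 pairs of cells matched on ribosomal share within 7 replicates it was -2.30 for the sums. In ribosome-poor cells only 1 replicate had enough cells, Sham 3, which is not among the 6, and the ratio was -0.08. The Oligodend1 sum there was only 4.77 per 10000 over 8 cells. Fos, an AP-1 subunit induced within minutes of a stimulus, was at 12.4, 4.46, 18.1, 22.3, 4.69 and 8.64 per 10000 in ribosome-rich Oligodend1 of FT 1, 2, 4, 5 and Sham 1, 2. In Oligodend2 of the same replicates it was at 42.4, 78.2, 55.4, 67.8, 38.3 and 39.3. The 2 sets of values did not overlap, and the Oligodend1 values were spread more widely in proportion.

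Of the 8 genes lowest against Oligodend2, 6 encode transcription factors of the immediate response: Klf4, Atf3, Egr2, Egr1, Jun and Fosb. Klf4 was at 0 in 4 of the 6 replicates of Oligodend1 and at most 0.148 per 10000, against 1.37 to 6.29 in Oligodend2. Atf3, a stress-induced member of the ATF/CREB family, ranged from 0.412 to 0.945 in Oligodend1 and from 5.04 to 20.2 in Oligodend2. Egr1 ranged from 0.37 to 2.51 against 7.35 to 23.2. The remaining pair were the co-chaperone Dnajb1, at 0.864 to 2.81 against 8.23 to 33.5, and the reticulon Rtn2, at 0.27 to 6.22 against 4.50 to 26.2. Only for Rtn2 did the ranges overlap, through the value of 6.22 in Sham 2.

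Some of these response genes carry the cyclic AMP response element, TGACGTCA, in the 250 bases before their start, and are shown because they were lower in Oligodend1 in every replicate. RefSeq promoters were matched for 13 list members, and the 8-base palindrome, the same on both strands, lay before 3 of them (Btg2, Dusp1 and Ier2) and before 1.7% of all 27457 promoters. Ier2 was at 0 in most replicates of both types. Capitals mark the element in the sequences, which run 5′ to 3′ toward the start site on build GRCr8. That of Btg2, an antiproliferative gene, is on the minus strand at chr13:48087691-48087940 with the element starting 201 bases before the start. That of Dusp1, a MAP kinase phosphatase, is on the plus strand at chr10:17184603-17184852 with the element starting 124 bases before it.
Btg2: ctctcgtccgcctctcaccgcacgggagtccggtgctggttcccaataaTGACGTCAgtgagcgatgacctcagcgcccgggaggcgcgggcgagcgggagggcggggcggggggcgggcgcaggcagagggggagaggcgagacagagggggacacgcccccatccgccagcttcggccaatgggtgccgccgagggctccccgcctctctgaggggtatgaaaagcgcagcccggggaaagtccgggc
Dusp1: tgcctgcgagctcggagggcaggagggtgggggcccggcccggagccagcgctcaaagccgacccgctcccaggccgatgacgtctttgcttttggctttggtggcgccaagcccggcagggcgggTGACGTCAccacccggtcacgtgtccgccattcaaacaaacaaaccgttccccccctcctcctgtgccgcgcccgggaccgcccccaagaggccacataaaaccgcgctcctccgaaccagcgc

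A match of letters is no evidence of binding. Btg2 was at 1.85, 1.62, 2.39, 0.738, 1.36 and 1.73 per 10000 in ribosome-rich Oligodend1 of FT 1, 2, 4, 5 and Sham 1, 2. In Oligodend2 it was at 8, 18.3, 19.6, 16.6, 2.31 and 9.17. The gap was smallest in Sham 1, where the log2 ratio was -0.72 against a median of -2.66. For Dusp1 the median log2 ratio was -1.76, and its Oligodend1 values of 0.135 to 2.11 lay under the Oligodend2 values of 3.07 to 5.27.

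Chaperone and sterol genes followed the same direction. Of 8 heat shock and chaperone genes compared, 6 were lower in Oligodend1 in every replicate (Hsp90aa1, Hsp90ab1, Dnaja1, Dnajb1, Cryab and Hsph1) and 0 were higher. Hsp90aa1, the inducible cytosolic HSP90, ranged from 9.45 to 19.9 in Oligodend1 and from 24.5 to 35.6 in Oligodend2. Of 10 sterol synthesis genes compared, 6 were lower throughout, Hmgcs1, Sqle, Cyp51, Idi1 and Insig1 among them, with a summed level of 13.4 to 21.5 against 18.5 to 74.9. The median log2 ratio of these sums was -1.26, and -1.12 in the matched pairs. In ribosome-poor cells of Sham 3, the 1 replicate with enough cells, it was 0.38, with an Oligodend1 sum of only 8.75 per 10000. Idi1, which makes the isoprenoid building block of cholesterol, was at 0.37 to 2.42 in Oligodend1 and 2.62 to 23.9 in Oligodend2. Bcas1, 1 of 2 newly formed stage genes compared, was also lower in every replicate, at 5.93 to 12.3 against 14.5 to 36.4. The other, Enpp6, was lower in 5 replicates and higher in 1.

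The genes that were higher in Oligodend1 differed by less. Of 20 myelin genes compared, Mog, Cnp, Pllp, Fa2h and Ermn were higher in every replicate and 0 were lower, with a median of the gene medians of 0.27. The log2 ratio of the sums was 0.22, and 0.24 in the matched pairs. Fa2h, which hydroxylates the fatty acids of myelin galactolipids, was at 2.25 to 4.84 per 10000 against 0.42 to 2.31. Sox10 was at 1.73 to 3.51 against 1.16 to 2.25. Of 63 nuclear-encoded genes of oxidative phosphorylation, 15 were higher throughout and 0 were lower, and their summed level was 183 to 216 against 135 to 175. The ribosomal share that set the comparison was alike, with 488 to 588 per 10000 in Oligodend1 and 486 to 565 in Oligodend2.

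The 8 genes with the largest ratios over Oligodend2 were Kcna1, Fam127b, Sephs2, Mrpl20, Malsu1, Bax, S100a16 and Wdr83os, with median log2 ratios from 1.38 to 1.65. Kcna1, a voltage-gated potassium channel, was at 0.702 to 1.38 per 10000 against 0.123 to 0.507. S100a16, a calcium-binding protein, was at 2.25 to 3.46 against 0.409 to 1.15, and neither pair of ranges overlapped. All 8 were genes of low level, since no Oligodend1 value among them exceeded 3.46.

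Against OPC the differences were wider and covered more genes. In the 6 replicates with at least 5 ribosome-rich cells of both types (FT 1, 2, 4, 5 and Sham 1, 5), Oligodend1 was above OPC throughout for 16.8% of 2581 genes and below it throughout for 28.5%. Of 20 myelin genes 18 were higher in every replicate, and their sum had a median of 656 per 10000 against 107 in OPC. Of 15 mature stage genes 12 were higher and 2, Il33 and Hopx, were lower. All 7 precursor genes compared were lower throughout (Pdgfra, Cspg4, Vcan, Ptprz1, Tnr, Cspg5 and Sox6), with a sum of 1.93 to 2.96 against 37.9 to 70.4. In 65 pairs matched on ribosomal share the log2 ratio was 2.51 for the myelin sum and -3.99 for the precursor sum.

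The highest ratios over OPC belonged to Ptgds, Ppp1r14a, Mal, Gstt3, APLP1, Cldn11, Tf and Opalin. Ptgds, prostaglandin D synthase, was at 43.1 to 58.5 per 10000 in Oligodend1 and 0 to 0.909 in OPC. Tf, transferrin, an iron carrier, was at 58.6 to 102 against 0.997 to 2.84. Cldn11, the tight junction protein of myelin, was at 27.5 to 42.7 against 0 to 2.27. The lowest ratios were those of Pdgfra, Nnat, Ptprz1, Col5a3, Rlbp1, Serpine2, Tubb2b and Cspg5. Ptprz1, a receptor phosphatase of precursors, was at 0.14 to 0.741 in Oligodend1 and 16.4 to 32.2 in OPC.

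Outside the stage genes, Oligodend1 was also below OPC throughout for 13 of 17 synaptic and neuronal excitability genes and above for 0. Among all genes compared, 28.5% were below OPC throughout. Of 10 axon support metabolism genes 4 were lower (Ldha, Ldhb, Gapdh and Eno1), near the share of all genes and not read as a difference. For the immediate early list both types were closer than Oligodend1 and Oligodend2 were, with sums of 14.2 to 36.6 and 24.6 to 38.3 that overlapped. In that list 3 of 12 genes were lower throughout, also near the share of all genes. Fos was at 4.46 to 22.3 over the ribosome-rich Oligodend1 replicates and at 7.64 to 14.7 in OPC.

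The second reaction was compared with the first within FT 2, Sham 1 and Sham 2, to give the profile of the ribosome-poor cells in the same tissue. edgeR's quasi-likelihood test with the replicate as a block called 519 genes higher in the second reaction, 12.4% of the 4178 tested, and 1210 lower, 29%, where a call needs an adjusted p up to 0.2 and a log2 fold change of 0.32 or more in size. Leaving out Sham 1 gave 1126 calls in place of 1729, and DESeq2 gave 1015. With 3 pairs the p-values measure only the spread between these pools, and cells or nuclei, depth and reaction cannot be told apart.

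Respiratory, immediate early and many myelin genes were lower in the second reactions. Of 85 ribosomal protein genes 84 were called lower, which restates that all cells of these reactions lay under the ribosomal boundary. Against 29% of all genes, 59 of 66 nuclear-encoded oxidative phosphorylation genes and all 11 mitochondrially encoded genes were also called lower. Of 20 myelin genes 14 were called lower and 0 higher, with a median log2 fold change of -2 against 0.06 for all genes. Cnp, an enzyme of non-compact myelin, was at 40.6, 55.6 and 43.1 per 10000 in the first reactions of FT 2, Sham 1 and Sham 2 and at 9.57, 1.72 and 1.29 in the second. Its log2 fold change was -4.57 ± 0.69 (SE), with adjusted p = 2.98e-09 in edgeR's test. Mal, a raft protein of myelin, was at 33.9, 28.7 and 28.0 and then at 0, 1.72 and 0, with adjusted p = 2.6e-13.

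Mbp and Mobp were not called. Mbp was at 115, 173 and 186 per 10000 in the first reactions and at 112, 60.7 and 246 in the second, so that it was near equal in FT 2, lower in Sham 1 and higher in Sham 2. Its log2 fold change was -1.05 ± 0.75 with adjusted p = 0.318 in edgeR's test. Mobp was at 33.4, 32.1 and 38.6 and then at 32.4, 17.9 and 60.1, with adjusted p = 0.347. Mog was called lower, at 21.9, 22.5 and 31.5 and then at 12.8, 25.8 and 6.86, although it was higher in Sham 1. In AstroSub1, an astrocyte cluster, Mbp ran from 23.2 to 172 per 10000, and in Granule, the granule neurons, from 28.3 to 181. The part of free RNA in the second reactions was not tested.

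Synaptic genes were higher in the second reactions. Of 19 tested, 15 were called higher and 0 lower, with a median log2 fold change of 2.20. Syt1, the calcium sensor of vesicle release, went from 0.648, 1.36 and 2.89 to 5.32, 5.65 and 9.44 per 10000. Grin2a, an NMDA receptor subunit, went from 0.389, 0.37 and 1.29 to 5.85, 7.86 and 5.58. Among long transcripts known from oligodendrocyte nuclei, 2 of 16 were called higher, Nckap5 and Dlg2, near the 12.4% of all genes. In the same list 1 was called lower, Sgk1, under the 29% of all genes. By direction 13 of the 16 were higher and 3 lower, with a median log2 fold change of 0.44 against 0.06 for all genes. The summed level of the list in ribosome-poor cells was 134 per 10000 in FT 2 and 161 to 285 in Sham. In ribosome-rich cells it was 81 to 108 in FT and 68.4 to 97 in Sham. Pde4b, a long phosphodiesterase gene, was at 20.7, 11.2 and 12.2 and then at 18.1, 66.6 and 41.2, with adjusted p = 0.374. Of 6 oligodendrocyte transcription factors tested, St18 was called higher, and Olig1, Myrf, Nkx6-2 and Sox8 lower.

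Most genes with the largest fold changes were read in only 1 kind of reaction. Fos had 96 UMIs in the first reactions and 0 among the 82829 UMIs of the second, which allows up to 0.362 per 10000 and puts it at least 14-fold lower. Ccl3, Ccl4, Ftl1l1, Ifi27, Tppp3 and an unnamed locus fell in the same way, by at least 9.92-fold. Ccl3 and Ccl4 are chemokines best known from microglia. Ferritin light chain genes such as Ftl1l1 have near-identical copies, so their counts are uncertain. Kcnj6, Me3, Dync1i1, Kcnk1, Iqsec3, Pkd2 and Epha4 had 7 to 9 UMIs in the second reactions and 0 among the 189267 of the first, at least 5.33-fold higher with the floor of 3 counts taken over each kind of reaction. Usp37, a deubiquitinase, had 21 and 1.

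The study's main question was what fluoxetine changed. Over all Oligodend1 cells, summed per replicate, edgeR called 116 genes higher in FT, 3.14% of the 3693 tested, and 105 lower, 2.84%. Replicates of FT and Sham did not overlap for 6.36% of the tested genes. The same groups differed in their ribosome-poor cells, which made up 10.0%, 52.0%, 13.3% and 7.14% of Oligodend1 in FT 1, 2, 4 and 5. In Sham 1 to 5 they made up 71.8%, 73.9%, 72.7%, 60.0% and 41.7%. FT 2 lay above Sham 5 and the other FT replicates lay below all Sham replicates, with means of 20.6% ± 21.1 (SD, n = 4) and 64.0% ± 13.7 (SD, n = 5) and p = 0.0238 in an exact two-sided permutation test. Without Sham 1, Sham 2, Sham 3 or Sham 4 the exact permutation p was 0.0571. With the second reactions left out, chosen after seeing the data, the difference was -26.5 points with p = 0.143 in the exact permutation test.

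The count of called genes depended on which cells and replicates entered. It was 0 of 3229 genes, 0%, in ribosome-rich cells of 4 FT and 3 Sham replicates, where 133 had an unadjusted p under 0.05 and DESeq2 also called 0. It was 0%, with 133 of 3693 genes under 0.05, when the ribosome-poor share entered as a covariate, and 0, with 230 under 0.05, in the first reactions alone. Leaving out FT 4 or FT 5 also gave 0, FT 1 gave 10, Sham 3 gave 21, Sham 2 gave 22, Sham 1 gave 119 and FT 2 gave 559. With the covariate some fold changes stayed near their size while their SEs grew, and others shrank or turned. What the loss of calls owes to the ribosome-poor share was not tested. Cntn1, a neuronal adhesion protein, had a log2 fold change of -2.78 ± 0.74 (SE) without the covariate and -2.62 ± 1.10 with it, and Lrrc7 had -2.23 ± 0.46 and -1.96 ± 0.65. With the covariate the median over 16 synaptic genes went from -1.18 to -0.85, with 14 lower. That over 85 ribosomal protein genes went from 0.59 to 0.23. For 12 immediate early genes it went from 0.8 to -0.11, and for 69 nuclear-encoded oxidative phosphorylation genes from 0.35 to -0.04. Treatment and ribosome-poor share cannot be told apart in the sums over all cells.

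**Figure D4:**
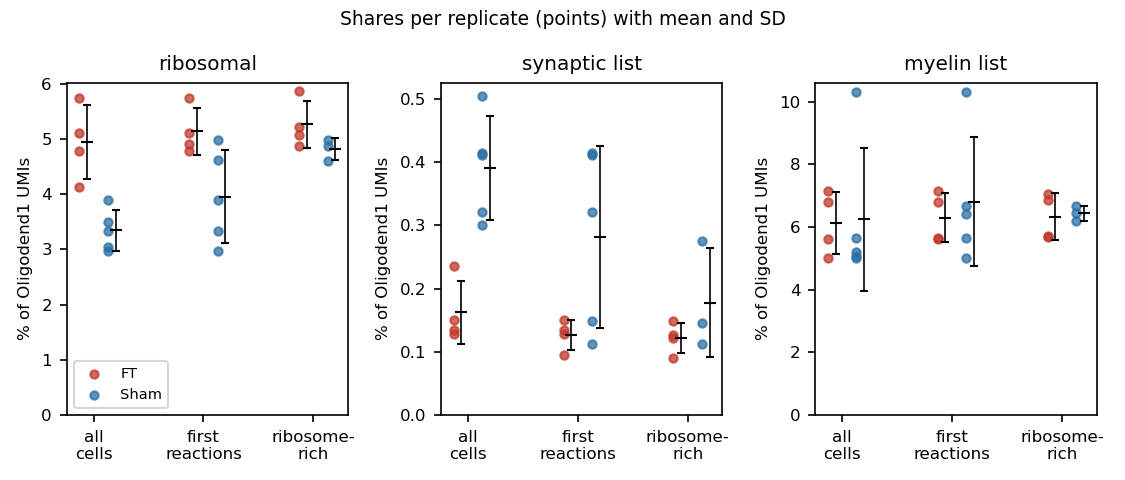
Percent of Oligodend1 UMIs in ribosomal protein genes, the synaptic list and the myelin list per replicate (points) with mean and SD (bars), for FT (red) and Sham (blue), over all cells, the first reactions and ribosome-rich cells. The groups stand apart for the ribosomal and synaptic shares over all cells and overlap in ribosome-rich cells.

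Among called genes whose groups did not overlap, those with the largest rise in FT included Cplx2, Glrx3, Cct4, Hspe1, P4hb, Rpl22l2 and Prdx4, with log2 fold changes from 1.21 to 1.71. Hspe1, the mitochondrial co-chaperonin, was at 3.99, 2.81, 3.82 and 2.45 in FT and at 0.986, 1.10, 1.18, 1.45 and 1.52 in Sham. Its log2 fold change was 1.42 ± 0.32 (SE) with adjusted p = 0.0729 over all cells and 0.97 ± 0.33 with adjusted p = 0.998 in ribosome-rich cells, both in edgeR's test. P4hb, protein disulfide isomerase, had means of 1.19 ± 0.193 (SD, n = 4) in FT and 0.444 ± 0.14 (SD, n = 5) in Sham.

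The 8 called genes with the largest fall in FT were Cntn1, Kcnh7, Lrrc7, Dmxl2, Iqgap2, Dpp6, Arnt and Tbc1d1, with log2 fold changes from -2.78 to -1.91. Lrrc7, a scaffold of the postsynaptic density, was at 0.199, 0.729, 0.136 and 0.288 per 10000 in FT 1, 2, 4 and 5 and at 1.31, 1.47, 2.66, 1.93 and 2.28 in Sham 1 to 5. Within FT 2 it was at 0.13 in the first reaction and 3.19 in the second, and within Sham 1 at 0.494 and 2.95. Kcnh7, a potassium channel, had means of 0.284 ± 0.109 (SD, n = 4) and 1.59 ± 0.796 (SD, n = 5). None of the 8 reached the minimum level in ribosome-rich cells, a mean of 0.5 per 10000.

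Over all genes tested, 3.14% were called higher and 2.84% lower. By gene list, 19 of 85 ribosomal protein genes were called higher and 0 lower, with a median log2 fold change of 0.59 against -0.06 for all genes. Of 9 chaperone genes 4 were called higher (Hspe1, Dnajb1, Cryab and Hsph1), and 1 of 12 immediate early genes, Fos. Of 16 synaptic genes 8 were called lower (Syt1, Gabrb1, Cntn1, Lrrc7, Kcnh7, Dlgap1, Rbfox1 and Grm5), with a median of -1.18. The gene lists were chosen with earlier results of these data known. The study itself names Syt1, Gabrb1, Gria2 and Gria3 as lower in oligodendrocyte1, so the synaptic count is no independent support. Lists with only 1 or 2 calls are given by name and not read as changed. Mature stage genes gave Ndrg1 and Gstp1 higher of 14, sterol genes Cyp51 of 10, axon support genes Aldoa of 13, and nuclear-encoded oxidative phosphorylation genes Ndufs4 of 69. In the long nuclear list Dlg2 was lower of 16. Of 20 myelin genes Mal was called higher and Aspa lower. No gene was called among 7 transcription factors, 2 precursor, 5 newly formed stage, 3 iron handling, 2 antigen presentation and 11 mitochondrially encoded genes. In ribosome-rich cells 0 genes of any list were called, and the medians were 0.12 for ribosomal, 0.45 for chaperone and -0.58 for synaptic genes against 0 for all genes.

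**Figure D5:**
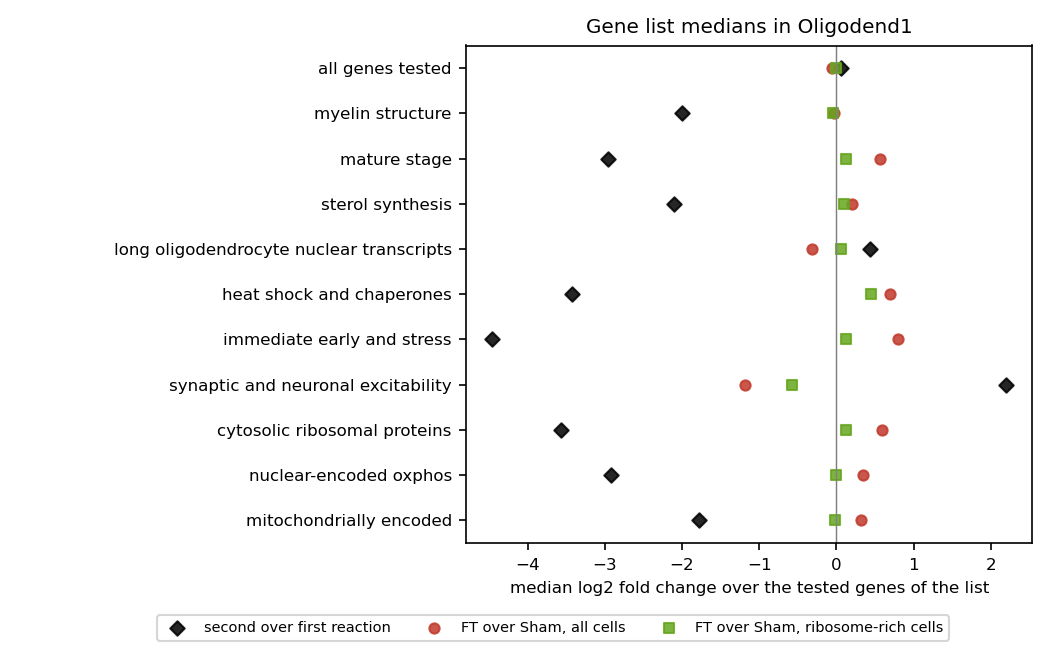
Median log2 fold change over the tested genes of 10 lists and of all genes in Oligodend1, for the second over the first reaction (black), FT over Sham in all cells (red) and in ribosome-rich cells (green). The ribosomal median is -3.57 between reactions, 0.59 for FT over all cells and 0.12 in ribosome-rich cells.

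Fos and Mbp were read by replicate. Fos was at 12.2, 3.44, 18.4 and 21.9 per 10000 in FT 1, 2, 4 and 5 and at 3.12, 4.59, 1.77, 3.86 and 6.73 in Sham 1 to 5. FT 1, FT 4 and FT 5 lay above all Sham values and FT 2 lay among them, with a log2 fold change of 1.79 ± 0.38 and adjusted p = 0.0673 in edgeR's test. In ribosome-rich cells it was 1.04 ± 0.37 with adjusted p = 0.998, and with the ribosome-poor share as a covariate its direction turned, at -0.40 ± 0.49 with adjusted p = 0.999. Mbp had means of 143 ± 37.8 (SD, n = 4) in FT and 144 ± 44.0 (SD, n = 5) in Sham, with adjusted p = 0.962 by edgeR.

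Shares of UMIs were tested as single values per replicate. Ribosomal genes took 4.94% ± 0.67 (SD, n = 4) of UMIs in FT and 3.35% ± 0.373 (SD, n = 5) in Sham, and no replicates overlapped, with adjusted p = 0.0198 over 5 shares by exact permutation. The synaptic list took 0.162% ± 0.0497 (SD, n = 4) and 0.39% ± 0.0826 (SD, n = 5), also without overlap and with adjusted p = 0.0198 by exact permutation. That list was chosen with earlier results of these data known. It holds Syt1, Gabrb1, Gria2 and Gria3, which the study names as lower in oligodendrocyte1, so this p-value is no independent support. Mitochondrially encoded genes took 6.77% and 5.45% and nuclear-encoded oxidative phosphorylation genes 1.92% and 1.51%, both with adjusted p = 0.0794 by exact permutation. The myelin list took 6.15% and 6.26%, with adjusted p = 0.952 by exact permutation. Without the deepest cell of Sham 4 the myelin share of that replicate was 4.87% in place of 10.3%, and FT was above Sham by 0.978 points with p = 0.0952 by exact permutation. As a median over cells, FT was above Sham by 2.58 points with p = 0.0397 and adjusted p = 0.0635 by exact permutation. In ribosome-rich cells the 5 adjusted p-values by exact permutation were 0.571 or more. The smallest p that 4 against 3 replicates can give by exact permutation is 0.0286 before adjustment. A single share at that floor could not reach 0.05 after adjustment over 5. These cells were selected on the ribosomal share, so likeness in that share is partly built in.

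Granule neuron markers moved with the synaptic list, with which they share no gene. The summed level of the 7 was 1.60 to 2.16 per 10000 in FT and 2.41 to 3.49 in Sham over all cells, and 1.44 to 2.22 and 0.692 to 2.05 in ribosome-rich cells. The 9 general neuron markers, all detected, summed to 3.59 to 4.27 in FT and 4.34 to 9.19 in Sham, but Syt1, Snap25, Grin1 and Grin2b are also members of the synaptic list. The other 5 summed to 0.313 to 1.2 in FT and 0.285 to 0.965 in Sham, which overlapped. In ribosome-rich cells these 5 gave 0.405 to 1.03 in FT and 0.227 to 0.617 in Sham, and in ribosome-poor cells 0 in FT 2 and 0.491 to 2.85 in Sham, with Rbfox3 at 0. Astrocyte markers ran from 2.79 to 8.86 in FT and 3.86 to 11.2 in Sham, microglial from 3.13 to 7.18 and 1.52 to 8.05 with P2ry12 at 0, endothelial from 1.99 to 2.60 and 0.854 to 2.57, mural from 0.288 to 1.2 and 0.295 to 0.965, and blood from 2.30 to 10.9 and 0.379 to 13.8. The part of these cell types in the calls was not tested.

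The number of Oligodend1 cells did not separate the treatments. They made up 6.99%, 12.7%, 11.5% and 14.1% of dorDG cells in FT 1, 2, 4 and 5 and 17.0%, 16.7%, 11.0%, 7.41% and 20.7% in Sham 1 to 5. The means were 11.3% ± 3.09 (SD, n = 4) and 14.5% ± 5.28 (SD, n = 5), with p = 0.31 in the exact two-sided permutation test. A share of sequenced cells does not tell fewer cells in the tissue from fewer cells recovered.

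The fluoxetine effect in Oligodend1 was set against that in the related clusters within replicates. For Oligodend2, in 4 FT and 3 Sham replicates, the difference of effects was called for 0 of 3565 genes, 0%, while 222 had p under 0.05 before adjustment in edgeR's test, and without FT 2 it was called for 16. For OPC it was called for 1 of 4105 genes, 0.0244%, with 0 calls without FT 1 or without Sham 1 and 5 without FT 2. That gene, Ace3, rested on 68 UMIs in 1 of the 171 Oligodend1 cells, from FT 1. Among ribosomal protein genes the effect was larger in Oligodend1 than in Oligodend2 for 86 of 88, and 0 were called. The median difference was 0.47 on the log2 scale against -0.01 for all genes. That fit took all cells, of which 50.3% in Oligodend1 and 12.6% in Oligodend2 were ribosome-poor. The ribosome-poor cells were defined by these same genes, so their direction is not independent of which cells entered.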

How the data were processed

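The authors deposited UMI counts of 19127 genes in each cell, with a cell type name per cell. Per the labels, alignment and counting used Cell Ranger 2.1.0, clustering used Seurat 3, and rn5 is listed with no role. Replicates are numbered as in the labels. The deposited cell table numbers them otherwise but joins the same reactions into the same 4 FT and 5 Sham replicates. The deposited clusters were used as they are and no doublet caller was run. Counts of the 171 cells were summed per label replicate over 4 index libraries and up to 2 reactions, leaving out sums of under 5 cells (under 3 for reactions). Totals ran from 33844 to 121693 UMIs per replicate, and floors cover counting error only.

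Genes averaging 0.5 or more UMIs per 10000 were tested with edgeR 4.0.16 (TMM, quasi-likelihood F test, Benjamini-Hochberg), with calls at adjusted p up to 0.2 and log2 fold changes of 0.32 or more in size. SE is the size of the log2 fold change over the root of F. DESeq2 1.42.0 was the alternative. It was run first without its independent filtering and then, after those counts had been seen, with it. Both counts are given, since the choice between these settings was made with counts known. The fits were first tested on simulated data. Shares were compared by exact permutation. Ratios between clusters added 0.1 per 10000 to both levels, over genes at 1 or more in either. Named genes were the 8 highest and 8 lowest fold changes among called genes whose groups did not overlap (for reactions, with 1 direction in every replicate), the 8 highest and lowest median ratios with 1 sign in every replicate, and list members. A few genes that these rules name are not reported here. Other genes were chosen after their values were seen. The members and gene lists were chosen with earlier results of these data known. The p-values measure the spread between these pools. Software was R 4.3.3 and Python 3.11.15.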

Additional observations from a re-analysis of the deposited data

Results flagged for a closer look

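Among 44 groups of 4 or 5 replicates examined for a value far from the rest, 3 were marked, and chance marks about 1 in 20. The ribosome-poor share of Oligodend1 cells was 52% in FT 2, far above the other FT replicates. FT 2 is the FT replicate whose second reaction held Oligodend1 cells, and 11 of its 13 ribosome-poor cells came from that reaction. The myelin list took 10.3% of UMIs in Sham 4 and 4.87% without its cell of 19455 UMIs, which held 261 UMIs of Mag, a myelin adhesion protein, against 32 in the other cells of that replicate. Arnt, a partner of PAS-domain transcription factors, was at 1.48 per 10000 in Sham 3, apart from the other Sham replicates.

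The fluoxetine effect on Ace3 differed between Oligodend1 and OPC by 8.76 on the log2 scale (adjusted p = 0.0226 in edgeR's test). Its UMIs were 68 in 1 Oligodend1 cell, 8 in OPC and 2 in Oligodend2, so the fitted size depends on the prior count.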

How the results depend on the processing

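The 221 fluoxetine calls became 195 with DESeq2, 31 with DESeq2 without independent filtering, 41 with no filter on low counts, 0 with the ribosome-poor share as a covariate, 0 in the first reactions, and 0 to 559 with 1 replicate left out. The same-numbered FT and Sham replicates had correlations of their deviations of 0.03, 0.16, 0.12 and 0.04, so the numbers were not taken as pairs; a replicate block gave 233 calls. In ribosome-rich cells the 0 calls became 7 with no filter, 1 with the replicate block, and 0 to 1 with a replicate left out. In ribosome-poor cells (1 FT against 5 Sham replicates, the lone sample assumed to vary like the rest) 0 of 4607 genes were called, 168 had p under 0.05, DESeq2 called 0, and leaving out a Sham replicate gave 0 to 2; no block could be fitted there. The difference of effects gave 1 call against Oligodend2 and 5 against OPC in ribosome-rich cells, and 0 to 16 and 0 to 5 with a replicate left out. Reaction calls, 1729, were 1015 with DESeq2, 927 without its filtering, 1989 with no replicate block, and 1126 to 1344 with a replicate left out.

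FT minus Sham differences, in percentage points, moved as follows. The Oligodend1 share was 0.209 in ribosome-rich cells, against -3.23. The ribosome-poor share was -26.5 in first reactions and -53.9 to -38.9 with a replicate left out. The myelin share, -0.114, was 2.58 as a median over cells, 0.978 without the deepest Sham 4 cell, 0.0579 without FT 1, 0.263 without FT 2, and -0.446 to 0.904 with a replicate left out. The ribosomal share was 2.86 as a median over cells, 0.446 in ribosome-rich cells and 1.18 in first reactions. The mitochondrial share was 0.142 in ribosome-rich cells, 0.675 in first reactions, and 1.11 to 1.62 with a replicate left out. The oxidative phosphorylation share was 0.335 to 0.501 with a replicate left out, and the synaptic share -0.0561 in ribosome-rich cells and -0.154 in first reactions. In ribosome-poor cells the log2 ratios to Oligodend2, from Sham 3 alone, were 0.52 for myelin, -0.08 for immediate early and 0.38 for sterol genes. Those to OPC, from 2 replicates, were 1.04 for myelin and -2.24 for precursor genes. The cause of these changes was not tested. The settings with first reactions only and without the deepest cell were chosen after seeing the data. The choice between DESeq2 with and without independent filtering was also made with counts known. Counts of calls stayed within 1.5 times in 40 alternatives and moved further in 24. Share differences kept their sign and side of the threshold in 56, lost the threshold in 20, passed it in 1 and turned in 6. Log2 ratios moved by less than 1 SD in 40, further in 4 and turned in 1.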
